A study of Mus musculus with 8 samples.

Results

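Pre-mRNA splicing depends on proteins that build the spliceosome and on RNA-binding proteins that steer it. The genes described here were those whose name in the array files begins with Snrp, Sf3, Sfrs or Srsf, Hnrnp or Hnrp, Prpf or Lsm. This rule took 84 genes with 167 probes, out of 27745 gene names with 41174 probes on the array. By family they were 13 Snrp genes (proteins of the small nuclear ribonucleoproteins, snRNPs), 14 Lsm genes (relatives of the Sm proteins), 8 Sf3 genes (splicing factors 3a and 3b of the U2 snRNP), 13 Prpf genes (pre-mRNA processing factors), 16 Sfrs genes (serine- and arginine-rich, or SR, proteins and relatives) and 20 Hnrp genes (proteins of heterogeneous nuclear ribonucleoproteins, hnRNPs). The files use older names, and 38 of the 84 were updated to the current symbol through RefSeq, so that Sfrs1 is given as Srsf1, Hnrpk as Hnrnpk and Sfrs8 as Sfswap. A name that fits the rule does not make a gene a splicing factor: Naa38, named Lsmd1 on the array, belongs to an acetyltransferase complex, and Lsm14a and Lsm14b act on messenger RNA in the cytoplasm.

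The series compared haematopoietic stem cells (HSC) lacking E47 with wild-type ones. E47 is a basic helix-loop-helix transcription factor and one of the splice products of the gene Tcf3 (E2A). Recipient mice were given the donor cells, these were recovered by flow cytometric sorting, and their RNA was amplified by a global PCR (SuperAmp) before it was hybridised with Cy3 to one-colour Agilent whole-genome arrays. The 4 groups, of 2 arrays each, were E47 knockout (KO) cells from secondary recipients, wild-type (WT) cells from secondary recipients, KO cells from primary recipients and WT cells from primary recipients. All 4 groups are transplanted cells, and for strain, age, recipient preparation and the knockout allele the sources used here name nothing. Nothing in the labels says that paired arrays came from different mice or sorts. The p-values thus reflect only how far arrays of a group spread, possibly for technical reasons. One slide carried all 4 WT arrays, and the KO groups had a slide each. Genotype and slide therefore cannot be told apart, nor can slide and recipient within KO, whereas secondary and primary WT cells shared a slide.

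In the spliceosome, snRNPs recognise the ends of an intron, assemble in a fixed order and rearrange to cut the intron out. A ring of Sm proteins, among them Snrpb, Snrpd1, Snrpd2, Snrpd3, Snrpe, Snrpf and Snrpg, sits on most spliceosomal small nuclear RNAs, and a related ring of Lsm proteins sits on U6. SR proteins mostly favour the use of nearby splice sites, while many hnRNP proteins oppose it, so that their balance shapes alternative splicing. Mutations of SF3B1, SRSF2 and PRPF8 occur in human myeloid neoplasms. In human pluripotent stem cells hnRNP H and F proteins influence which of the mutually exclusive exons of TCF3 is used, and so whether E12 or E47 is made.

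Levels are log2 of the processed spot signal minus the 75th percentile of the signal on that array, so 0 is the level of a spot at that percentile. A gene was represented by its probe of highest mean level, and 83 of the 84 genes were tested, Hnrnpul2 being the exception (above background on 2 of 8 arrays). Of these, 46 were well above background on all 8 arrays. Probes differ in how brightly they bind, so levels are compared between arrays and not between genes.

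The arrays were unequal. Between 74.5% and 90.7% of spots were well above background on the KO arrays and between 78.0% and 80.2% on the WT arrays of secondary recipients, against 72.2% and 35.4% for KO and 74.0% and 41.9% for WT cells of primary recipients. Replicate 2 of both primary groups is called a dim array below, and its values near the bottom of the scale are mostly background. Of 12 HSC markers, 11 or 12 were well above background on the other 6 arrays and 6 on each dim array. The summed signal of 12 neutrophil and myeloid progenitor markers, divided by the array's 75th percentile, was 14.0 and 31.6 in KO and 15.8 and 8.0 in WT cells of secondary recipients, against 233.5 and 15839 in KO and 251.2 and 11152 in WT cells of primary recipients. S100a8, a neutrophil calgranulin, was not well above background on 1 KO and both WT arrays of secondary recipients, and was well above background on all primary arrays. The same sum ranged from 3.7 to 13.5 for T cell markers on the secondary arrays, against 11.8 to 437.8 on the primary ones, from 7.1 to 10.8 for B cell markers, against 11.9 to 15.0, from 17.7 to 32.0 for erythroid markers, against 3.9 to 779.3, and from 6.7 to 22.5 for megakaryocyte markers, against 9.5 to 42.8. The myeloid and B cell sums did not overlap between the kinds of recipient, while the T cell, erythroid and megakaryocyte sums did. The HSC sum was 53.5 and 81.3 in KO and 83.5 and 78.7 in WT cells of secondary recipients, against 30.5 and 12.0151 in KO and 26.0 and 1800 in WT cells of primary recipients, where the dim WT array alone exceeded the secondary ones. The part of these markers in the results below was not tested. The brighter of 2 probes for Tcf3 stood at 1.33 and -1.36 in KO and 1.07 and 1.28 in WT cells of secondary recipients, and at -2.09 and 2.37 in KO and -1.62 and 5.13 in WT cells of primary recipients. The sources used here place neither the deletion nor the exons of E12 and E47 relative to these probes, so their levels check no label.

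The members as a group stood above the median gene on every array. Their median level, relative to the median of the 22990 genes tested on that array, was 1.90 and 2.48 in KO and 3.19 and 2.54 in WT cells of secondary recipients, and 1.26 and 1.34 in KO and 1.01 and 2.61 in WT cells of primary recipients. The lowest secondary array thus lay above 3 of the 4 primary arrays, and the dim WT array alone among the primary ones exceeded it. Members also spread more than other genes: the median range over the 8 arrays was 6.19 for the members and 4.58 for all genes.

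**Figure D1:**
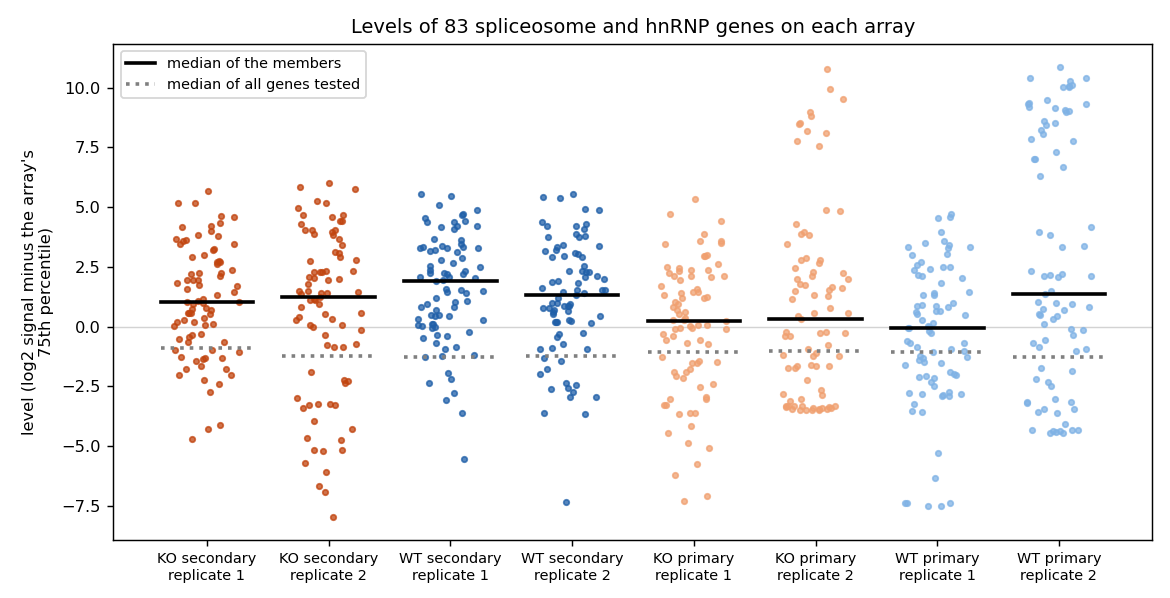
Levels of the 83 tested members on each of the 8 arrays (y axis, log2 signal minus the array's 75th percentile; 1 point per gene), with the median of the members as a black line and the median of all genes tested as a dotted line. On replicate 2 of the primary groups, 11 members (KO) and 29 members (WT) stand above a level of 6, where the other arrays hold at most 1.

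The spread was uneven between groups. The median absolute difference between the 2 arrays of a group was 1.34 over the members in KO and 0.57 in WT cells of secondary recipients, and 2.49 in KO and 3.04 in WT cells of primary recipients. Over all genes it was 1.19, 0.82, 1.71 and 1.62 in the same order of groups, so members differed between replicates by less than other genes in WT secondary cells and by more in the other groups. Across the 83 members the 2 arrays of a group correlated at r = 0.68 in KO and 0.79 in WT cells of secondary recipients, and at 0.28 in KO and 0.51 in WT cells of primary recipients. These are correlations across genes of arrays that share an array design, given as a description.

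A part of the families reached very high levels on the dim arrays. On the WT one, 29 of 83 members (34.9%) stood above a level of 6, against 7.66% of all genes, and on the KO one 11 members (13.3%), against 4.51% of all genes. No member passed that level on 5 of the other 6 arrays, and Hnrnpa3 did so on the remaining one, at 6.03 in KO secondary cells. Of these members 8 were above 6 on both dim arrays, 21 on the WT one alone and 3 on the KO one alone. The 29 genes held 9 of the Hnrp, 7 of the Snrp, 6 of the Sfrs, 3 of the Sf3, 2 of the Lsm and 2 of the Prpf genes. Srsf7, an SR protein, was the most extreme case: it stood at 1.81 and 0.39 in KO and 2.08 and 1.60 in WT cells of secondary recipients, and at -3.29 and -3.31 in KO and -7.37 and 9.38 in WT cells of primary recipients. Its 2 WT primary arrays thus enclosed every other value. Srsf7 was not well above background on WT primary replicate 1 or KO primary replicate 2, so these low levels have no measured size. Several results below turn on WT primary replicate 2.

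**Figure D2:**
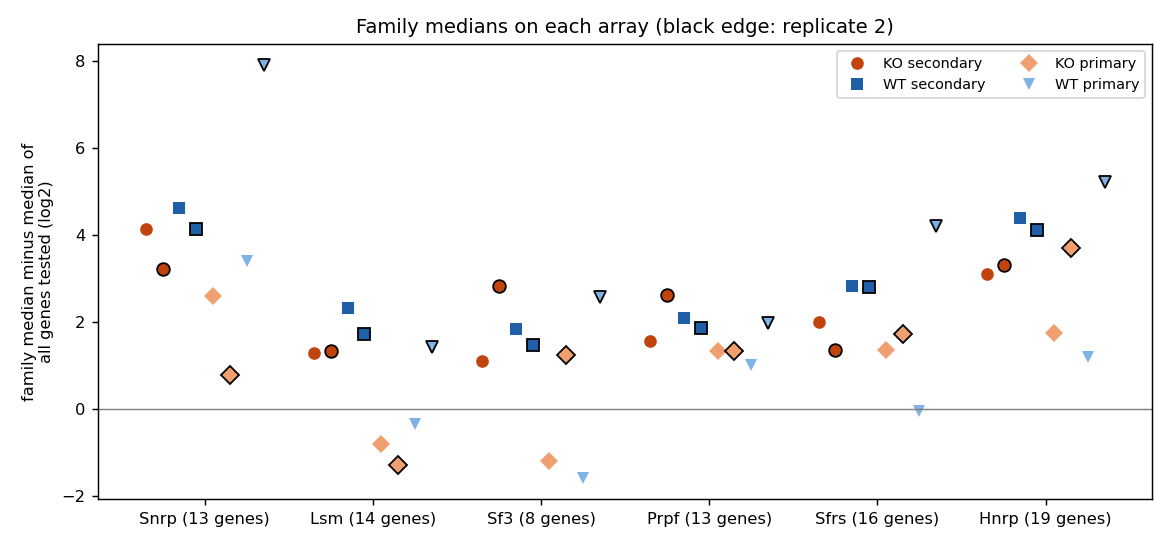
Median level of each family minus the median of all genes tested (y axis, log2) on each of the 8 arrays, by family, with colour and shape for the group and a black edge for replicate 2. The Snrp family lies between 0.79 and 4.62 on 7 arrays and at 7.92 on replicate 2 of WT primary.

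Within families, a few members were steady. Prpf40b, a pre-mRNA processing factor, and Clasrp, an SR-related protein named Sfrs16 on the array, had the smallest range over the 8 arrays, 1.83 each. Hnrnpdl (2.41), Snrpb (2.84), Lsm4 (2.87) and Sf3a2 (4.24) were the steadiest of their families among genes above background on all arrays. The least steady by the same rule were Hnrnph1 (12.44), Sf3b5 (11.48), Naa38 (10.08), Snrpc (9.44), Srsf11 (9.44) and Prpf31 (9.29). All 6 reached their highest level on a dim array.

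Secondary recipients were compared with primary ones to ask which of these transcripts differ after a second transplantation. Over both genotypes, 56 of 83 members stood above the median gene in cells of secondary recipients and 27 below, with a median log2 change of 0.96 relative to the median gene. No member passed the limma test at an adjusted p under 0.05, and neither did any other gene (0.0%). At an unadjusted p under 0.05, 9 members were higher and 0 lower (10.8% of 83), where 19.2% of all genes passed at that level, 5.52% higher and 13.6% lower. Bulk arrays cannot tell fewer cells of a type from less RNA per cell.

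Changes are given relative to the median gene, while p-values refer to the change before this centring. The median gene itself moved by -0.73 between secondary and primary recipients over both genotypes, by -0.99 within WT and by -0.52 within KO. It moved by 0.33 between KO and WT over both kinds of recipient, by 0.45 within secondary and by 0.29 within primary recipients.

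The lowest p of any member belonged to Lsm8, the subunit that sets the nuclear Lsm ring on U6 apart from the cytoplasmic one. Lsm8 stood at 2.73 and 2.91 in KO and 2.85 and 2.53 in WT cells of secondary recipients, against -3.03 and -3.46 in KO and -2.73 and -0.11 in WT cells of primary recipients. All 4 secondary arrays lay above all 4 primary arrays. On KO primary replicate 2 Lsm8 was not well above background. The log2 change was 5.82 (SE 0.82, unadjusted p = 0.000206, limma adjusted p = 0.0712). Within WT, where all arrays shared a slide, it was 5.10 (SE 1.13, limma adjusted p = 0.376), and within KO 6.59 (SE 1.13, limma adjusted p = 0.705). Lsm8 passed the threshold in 3 alternatives: with quantile normalization (limma adjusted p = 0.0413), with the 75th percentile taken over probes above background on all arrays (0.0156), and without both dim arrays (0.0478). Among all 22990 genes, 204 (0.887%), 369 (1.61%) and 77 (0.335%) passed under these settings.

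Lsm8 has 1 probe on the array, on chromosome 6. Its relatives in the ring did not share its pattern in full. Lsm2, a subunit of both Lsm rings, stood at -1.77 and -2.30 in KO and -0.23 and 0.15 in WT cells of secondary recipients, against -2.40 and -3.33 in KO and -2.02 and -4.35 in WT cells of primary recipients. The change amounted to 2.72 on the log2 scale (SE 0.84, limma adjusted p = 0.257), and KO secondary replicate 2 lay below WT primary replicate 1. Lsm5 stood at 1.95, Lsm6 at 2.18, Lsm4 at 0.69, Lsm7 at -0.03 and Lsm3 at -0.38, none of them with an unadjusted p under 0.05. With every probe on its own, the probes of Lsm6 gave 1.98, 5.81, 0.70 and 1.94, from brightest to dimmest. Lsm1, which takes the place of Lsm8 in the cytoplasmic ring that promotes messenger RNA decay, stood at -2.41 (SE 2.90, limma adjusted p = 0.551). Its 8 levels ran from -7.35 on WT secondary replicate 2 to 8.9988 on KO primary replicate 2, so that no order of groups could be read.

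In all, 4 members separated the 4 secondary from the 4 primary arrays upwards, Lsm8, Srek1, Prpf19 and Snrpe (4.82% of 83, with 3.17% of all genes), and 0 downwards (12.7% of all genes). Srek1, a regulatory SR protein named Sfrs12 on the array, stood at 2.70 and 3.42 in KO and 2.22 and 3.79 in WT cells of secondary recipients, against 1.25 and -1.64 in KO and -1.92 and -1.86 in WT cells of primary recipients. Srek1 differed by 4.80 on the log2 scale (SE 0.87, limma adjusted p = 0.121). Prpf19, the ubiquitin ligase at the core of the Prp19 complex that activates the spliceosome, stood at 2.26 and 2.28 in KO and 3.37 and 2.97 in WT cells of secondary recipients, against 0.38 and -2.25 in KO and -0.0002 and -2.48 in WT cells of primary recipients. In Srek1 and Prpf19, KO primary replicate 1 came closest to the secondary arrays, and in Prpf19 the dim arrays were the lowest. The log2 change of Prpf19 was 4.54 (SE 0.88, limma adjusted p = 0.147). Snrpe, an Sm ring protein, stood at 3.47 and 4.29 in KO and 3.32 and 3.17 in WT cells of secondary recipients, against 2.47 and -3.32 in KO and -0.69 and -4.32 in WT cells of primary recipients. Its 2 lowest values were those of the dim arrays, and Snrpe differed by 5.76 on the log2 scale (SE 1.35, limma adjusted p = 0.204). Neither Snrpe nor Prpf19 was well above background on a dim array, and Srek1 was not on the KO one. Their changes thus rest in part on levels without a measured size.

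**Figure D3:**
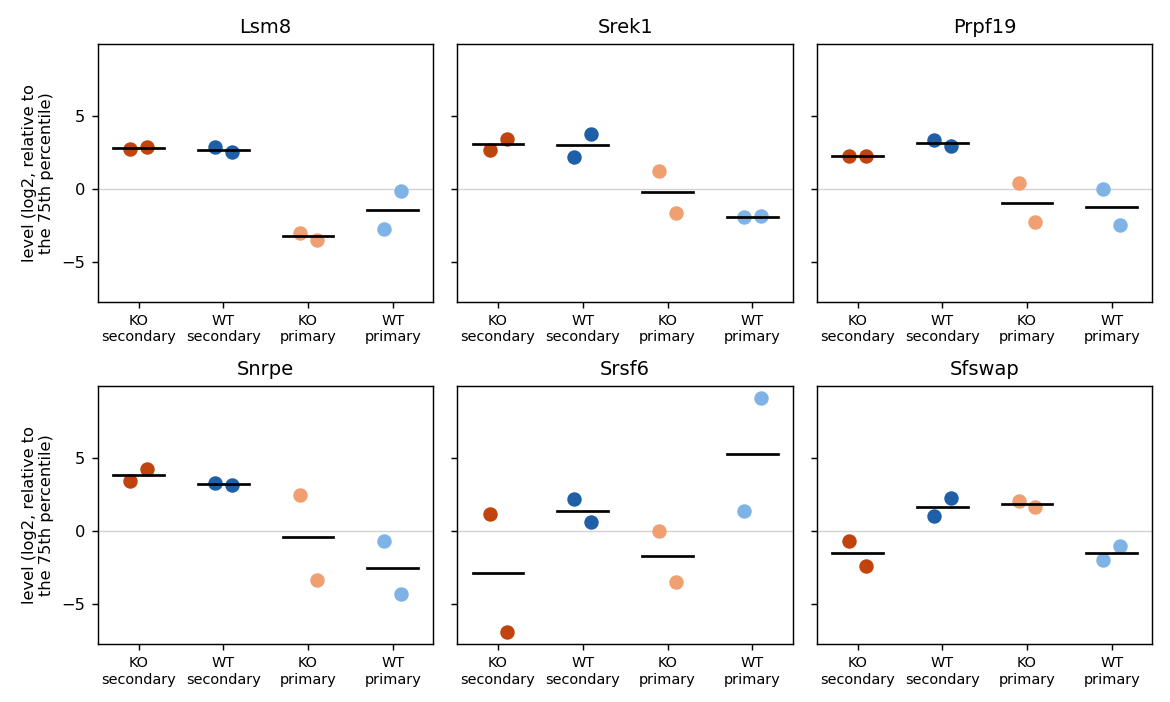
Levels of 6 members on the 8 arrays (y axis, log2 signal minus the array's 75th percentile), with 1 point per array and a black line at the group mean. For Lsm8, Srek1, Prpf19 and Snrpe the secondary arrays of both genotypes lie above all primary arrays; Srsf6 has its highest value on replicate 2 of WT primary and its lowest on replicate 2 of KO secondary; in Sfswap the order of KO and WT differs between the kinds of recipient.

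Lsm14b, Scaf11, Lsm2 and Prpf6 were also among the members with an unadjusted p under 0.05 over both genotypes. Lsm14b stood at 4.87 (SE 1.34, limma adjusted p = 0.249), with neither KO primary array well above background. Prpf6, which bridges the parts of the tri-snRNP, stood at 2.44 (SE 0.72, limma adjusted p = 0.257). Scaf11, an SR-related protein named Sfrs2ip on the array, was not well above background on any primary array. In cells of secondary recipients it stood at 1.93 and -6.67 in KO and 2.78 and -0.71 in WT (limma adjusted p = 0.251). The value of -6.67 was not well above background either, so no size is given. Bounds on a fold change are given below where a probe was well above background on no array of the dim side. For such a bound the dim side is taken, array by array, at the faintest signal that still counted as well above background. Where the probe itself read higher, its own level is taken, and the arrays are then averaged. Snrpd2, another Sm protein, had a change of 2.55 (SE 0.85, limma adjusted p = 0.280).

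At the other end, no member had an unadjusted p under 0.05. Hnrnpk, an abundant poly(C)-binding hnRNP, stood at 2.68 and 3.66 in KO and 3.62 and 2.89 in WT cells of secondary recipients, against 3.90 and 8.10 in KO and 3.05 and 10.09 in WT cells of primary recipients. The 2 dim arrays carry the difference: the log2 change was -2.34 (SE 1.54, limma adjusted p = 0.299) and turned to 0.24 without them. The other 9 of lowest p in this direction were Snrpa (-1.97), Hnrnpa0 (-1.90), Sf3a2 (-0.71), Naa38 (-2.07), Hnrnpdl (-0.44), Sugp2 (-0.53), Srsf11 (-1.77), Srsf2 (-1.90) and Prpf8 (-0.29), with limma adjusted p between 0.313 and 0.453. All of these but Snrpa and Naa38 turned positive in at least 1 alternative. The alternatives did not read the other probes of Snrpa. With every probe on its own these gave 0.0085, 2.98 and -0.80, against -2.17 for its brightest probe.

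Family by family, the median change over both genotypes was 0.86 for Snrp (10 of 13 above the median gene), 1.30 for Lsm (10 of 14), 1.02 for Sf3 (5 of 8), 0.39 for Prpf (8 of 13), 0.87 for Sfrs (11 of 16) and 1.11 for Hnrp (12 of 19). Every family median was positive in this comparison. Of the 9 members with an unadjusted p under 0.05, 3 were Lsm, 3 Prpf, 2 Sfrs and 1 Snrp genes. The Sm proteins Snrpd1 (2.76), Snrpf (2.16), Snrpb (0.86), Snrpd3 (0.84) and Snrpg (0.05) had no unadjusted p under 0.05, and neither had the U1 proteins Snrnp70 (0.85), Snrpc (-1.01) and Snrpa (-1.97). Among the U2 proteins, Sf3b3 stood at 2.63, Sf3a3 at 2.44, Sf3a1 at 1.53, Sf3b4 at 1.21, Sf3b2 at 0.83 and Sf3b1, which holds the branch point, at -0.43. Of the SR proteins, Srsf7 stood at 3.35, Srsf5 at 1.41, Srsf1 at 1.09, Srsf3 at 0.52 and Srsf6 at -1.77. Of the hnRNP proteins, Hnrnpm stood at 3.51, Hnrnpf at 2.81, Hnrnpd at 1.74, Hnrnpc at 1.34, Hnrnpa2b1 at 1.11, Hnrnpll at 0.81, Hnrnpu at 0.73, Hnrnpa1 at -0.96 and Hnrnpl at -1.34. Each of these values had an unadjusted p above 0.05.

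Within WT, on 1 slide, 51 members stood above the median gene and 32 below (median 0.48). No gene passed the adjusted threshold (0.0%), and 11 members were higher and 0 lower at an unadjusted p under 0.05 (13.3%, against 12.0% of all genes, 5.44% higher and 6.52% lower). By lowest p they were led by Srek1 (5.89, SE 1.25), Lsm8 (5.10, SE 1.13), Prpf19 (5.41, SE 1.30), Sfswap (4.19, SE 1.09) and Snrpe (6.75, SE 1.9973), with limma adjusted p between 0.368 and 0.412. The lowest p downwards belonged to Snrpa (-2.79), Prpf31 (-3.29), Hnrnpa0 (-2.50), Prpf3 (-1.05) and Snrpc (-2.78), where limma adjusted p lay between 0.424 and 0.472. Snrpa, Prpf31 and Snrpc had their highest level on WT primary replicate 2, at 10.04, 9.03 and 9.20, and without that array they stood at 0.33, 0.56 and 1.57. Without it the median of the members was 2.13.

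Within KO, 51 members stood above the median gene and 32 below (median 0.82). No gene passed the adjusted threshold (0.0%), and at an unadjusted p under 0.05 5 members were higher and 1 lower (7.23%, against 6.04% of all genes, 3.28% higher and 2.76% lower). Lsm14b, an RNA-binding protein of cytoplasmic granules, stood at 0.53 and 3.97 in KO secondary and -5.77 and -3.46 in KO primary cells, where it was not well above background, a difference of at least 40.8-fold (limma adjusted p = 0.705). Lsm5, a subunit of both Lsm rings, stood at 1.73 and 1.42 in KO secondary and -1.91 and -0.95 in KO primary cells, a change of 3.52 (SE 0.9986, limma adjusted p = 0.717). In both genes the KO secondary arrays lay above the KO primary ones. Lsm8 (6.59), Srek1 (3.78, SE 1.25) and Prpf19 (3.73, SE 1.30) completed the 5. Sfswap was the 1 lower member (-2.84, SE 1.09), and Lsm10 (-2.54), Hnrnpc (-2.87), Sf3a2 (-1.68) and Srsf3 (-1.62) followed, with limma adjusted p between 0.717 and 0.722. The comparisons within WT and within KO share no array, and 35 members stood above the median gene in both, 16 below in both and 32 on different sides.

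KO was compared with WT to ask which of these transcripts differ without E47. Over both kinds of recipient, 20 of 83 members stood above the median gene in KO and 63 below, with a median log2 change of -0.95. No gene passed the adjusted threshold (0.0%, limma adjusted p at least 0.852). At an unadjusted p under 0.05, 2 members were higher and 3 lower (6.02%, against 4.68% of all genes, 3.52% higher and 1.17% lower). In no member did the 4 KO arrays stand apart from the 4 WT arrays, either above (1.31% of all genes) or below (0.487% of all genes). The members were estimated less precisely than other genes, with a median SE of 1.34 against 0.952 over all genes.

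**Figure D4:**
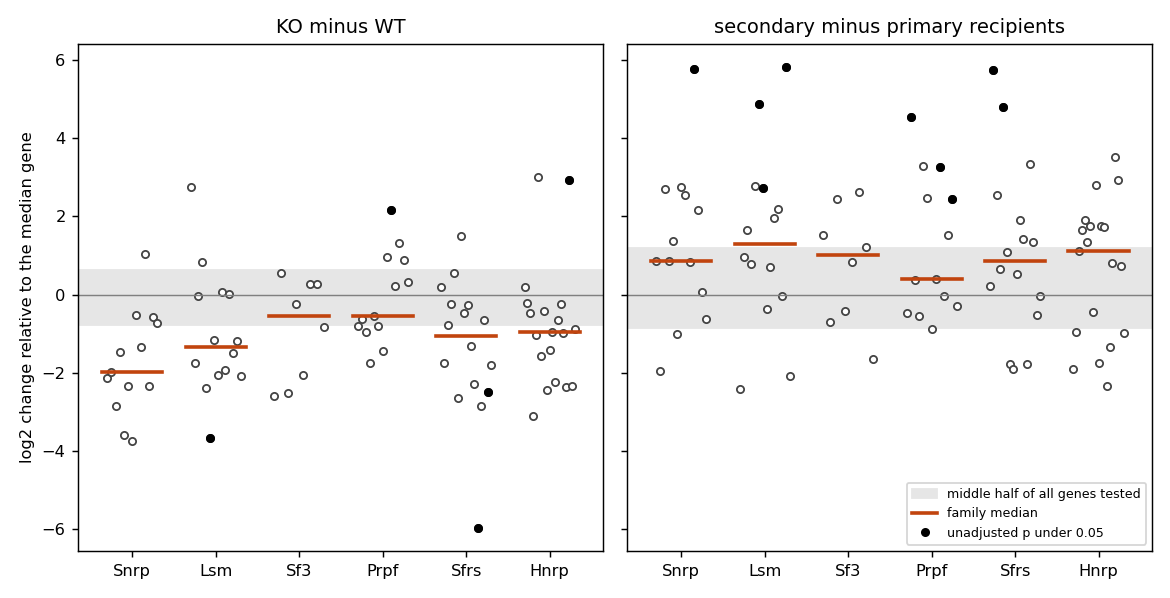
Log2 change of each of the 83 members relative to the median gene (y axis), KO minus WT on the left and secondary minus primary recipients on the right, by family; a filled point has an unadjusted p under 0.05, the line is the family median and the band runs from the lower to the upper quartile of all genes tested. In the KO comparison 12 of 13 Snrp genes lie below 0; in the recipient comparison all 9 filled points lie above 0.

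Over both kinds of recipient the Snrp family lay lowest, with 12 of 13 genes below the median gene and a median of -1.98. Its median was -0.79 in secondary recipients alone, where the Sfrs family lay lowest at -1.47, and -2.26 in primary recipients alone. Over both, the family medians were -1.34 for Lsm (10 of 14 below), -0.54 for Sf3 (5 of 8), -0.56 for Prpf (7 of 13), -1.05 for Sfrs (13 of 16) and -0.95 for Hnrp (16 of 19). Snrpa1, a U2 snRNP protein, stood at -2.85 (SE 1.11), Snrnp70, the U1 protein that contacts SR proteins, at -2.12 (SE 0.99) and Snrpb2, a second U2 protein, at -3.60 (SE 1.92), all with limma adjusted p = 0.852. Snrpa1 was not well above background on either KO primary array, and Snrpb2 stood at 1.07 with probes well above background on all arrays. Snrpb stood at 0.05 and -0.76 in KO and 2.07 and 0.94 in WT cells of secondary recipients, and at -0.08 and 0.57 in KO and 0.87 and 0.43 in WT cells of primary recipients. Its KO and WT arrays overlapped in primary recipients and were apart in secondary ones, with a change of -1.46 (SE 0.69, limma adjusted p = 0.852). Snrpd1 (-3.73), Snrpf (-2.35), Snrpc (-2.33), Snrpa (-1.98), Snrpd3 (-1.34), Snrpn (-0.73), Snrpg (-0.57) and Snrpd2 (-0.53) completed the 12, and Snrpe stood at 1.03. These counts read the brightest probe of each gene. With every probe on its own, other probes gave 1.97 for Snrpd1, 1.13 for Snrpb2, 0.48 for Snrpn and -1.13 and 1.94 for Snrpd3. For Snrpa they gave -0.66, -0.48 and 1.48, for Snrnp70 -0.41 and for Snrpf -1.48. Several of these probes were not well above background on every array. The Snrp median on WT primary replicate 2, 7.92 above the median gene, was the highest of all arrays. Without that array the median of all members was -0.36.

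Of single members, Srsf6, an SR protein, had the lowest value. It stood at 1.17 and -6.91 in KO and 2.19 and 0.64 in WT cells of secondary recipients, and at 0.04 and -3.48 in KO and 1.39 and 9.14 in WT cells of primary recipients. In each kind of recipient a lone array, replicate 2, sets most of the difference of -5.97 (SE 2.17, limma adjusted p = 0.852). The probe was not well above background on replicate 2 of either KO group. This value thus rests in part on levels without a measured size. With every probe on its own, the other Srsf6 probe gave -0.41, against -5.94 for the brighter. Sugp2, a splicing-related protein named Sfrs14 on the array, stood at -1.06 and -0.15 in KO and 0.27 and 1.98 in WT cells of secondary recipients, and at -0.12 and 0.58 in KO and 1.45 and 4.15 in WT cells of primary recipients. Its KO arrays lay below its WT arrays within each kind of recipient, with a change of -2.48 (SE 0.84, limma adjusted p = 0.852). Lsm14b (-3.66, SE 1.34), Lsm5 (-1.94), Lsm7 (-1.50) and Sf3a3 (-2.51) were also among the 10 of lowest p below the median gene. Lsm14b was not well above background on either KO primary array, so its value rests in part on levels without a measured size.

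In the opposite direction, Hnrnpr, an RNA-binding hnRNP, stood at 2.93 (SE 1.38, with no WT primary array well above background), Prpf4b, a kinase of the spliceosome, at 1.33 (SE 0.78) and Hnrnpc, which binds uridine tracts, at 3.01 (SE 1.83). Prpf6 (0.89), Lsm12 (0.83), Srsf11 (1.49), Lsm1 (2.74) and Sf3a2 (0.56) followed Hnrnpc in order of p. Limma adjusted p for these lay between 0.852 and 0.858. With every probe on its own, the other tested probes of these genes lay below 0. They gave -2.9957 for Hnrnpr, -0.48 and -0.72 for Prpf4b, and -3.08 for Hnrnpc. For Prpf6 the value was -0.396, for Lsm12 -0.69, and for Srsf11 -2.41 and -3.91. Several of these probes were not well above background on every array. Lsm1 and Sf3a2 have 1 probe each.

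In secondary recipients alone, 20 members stood above the median gene in KO and 63 below (median -0.75). No gene passed the adjusted threshold (0.0%), and 0 members were higher and 3 lower at an unadjusted p under 0.05 (3.61%, against 5.36% of all genes, 3.7% higher and 1.67% lower). The 3 were Lsm10, Sfswap and Hnrnph3. Lsm10, a protein of the U7 snRNP that processes histone messenger RNA, stood at -4.71 and -3.94 in KO and 1.19 and -0.42 in WT cells, a change of -5.16 (SE 1.38, limma adjusted p = 0.815). Hnrnph3, an hnRNP of the H and F group, stood at -2.26 and -6.10 (not well above background) in KO and -0.39 and 0.85 in WT cells, a change of -4.87 (SE 1.68, limma adjusted p = 0.901). In both genes the KO arrays lay below the WT arrays. Lsm14a (-4.04) and Snrpb (-2.32) came next downwards, and Lsm12 (1.51), Prpf6 (0.81), Prpf4b (0.79) and Clasrp (0.57) were among those of lowest p upwards.

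In primary recipients alone, 31 members stood above the median gene in KO and 52 below (median -0.60). No gene passed the adjusted threshold (0.0%), and 3 members were higher and 5 lower at an unadjusted p under 0.05 (9.64%, against 3.95% of all genes, 1.98% higher and 1.97% lower). Hnrnpc stood at 3.48 and 9.54 in KO and -0.71 and -0.93 in WT cells, a change of 7.04 (SE 1.83, limma adjusted p = 0.995). Hnrnpr stood at 1.70 and -1.20 in KO and at -7.41 and -3.21 in WT cells (limma adjusted p = 0.995). It was not well above background on either WT array or on KO replicate 2, so no size is given for the difference. Sfswap stood at 3.09 (SE 1.09). Upwards, Sf3b4 and Prpf4b (1.79) followed. Sf3b4 was well above background on only 1 primary array, in KO, so no size is given for it.

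Downwards in primary recipients, Lsm14b stood at -5.77 and -3.46 in KO and 0.67 and 2.21 in WT cells and was at least 23.2-fold lower in KO (limma adjusted p = 0.995). Lsm5 stood at -1.91 and -0.95 in KO and 2.41 and 1.5029 in WT cells, a change of -3.67 (SE 0.9986, limma adjusted p = 0.995). In both genes KO and WT were apart on all 4 arrays. The other 3, Snrpf (-4.38, SE 1.55), Snrpd1 (-7.11, SE 2.71) and Snrpb2 (-6.48, SE 2.47), had their highest level on WT primary replicate 2, at 7.04, 10.42 and 8.97. All 3 also had their lowest on KO primary replicate 2, at -0.41, -3.35 and -3.41, both being the dim arrays. Snrpb2 turned to 1.96 with probes well above background on all arrays, where another of its probes was read, and its 2 probes correlated over the 8 arrays at r = -0.84. Without WT primary replicate 2 the median of the members was 0.11. Without WT primary replicate 1, where the dim array alone stands for WT, 8 members passed the threshold, and so did 541 of 22990 genes (2.35%); the lone WT array is then assumed to vary like the other groups. The 8 were all lower in KO: Hnrnpf, Hnrnpu, Prpf31, Sf3a1, Srsf1, Tra2b, Srsf7 and Snrpc. The comparisons in primary and secondary recipients share no array, and 10 members stood above the median gene in KO in both, 42 below in both and 31 on different sides.

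Whether the difference between KO and WT itself differed between secondary and primary recipients was tested by the interaction. No gene passed (0.0%, limma adjusted p = 1.0 for the members), and at an unadjusted p under 0.05 2 members were higher and 4 lower (7.23%, against 3.75% of all genes, 2.01% higher and 1.73% lower). Sfswap, the homologue of the Drosophila splicing regulator suppressor of white-apricot, had the lowest p. It stood at -0.64 and -2.37 in KO and 1.05 and 2.31 in WT cells of secondary recipients, and at 2.08 and 1.65 in KO and -2.0016 and -1.03 in WT cells of primary recipients. KO lay below WT on all secondary arrays and above WT on all primary arrays, with no overlap on either side. The KO against WT change was -3.63 (SE 1.09, limma adjusted p = 0.875) in secondary and 3.09 (SE 1.09, limma adjusted p = 0.995) in primary recipients, and the difference between them -6.83 (SE 1.54, unadjusted p = 0.00323, limma adjusted p = 1.0). Lsm10 (-6.85), Hnrnpc (-8.26) and Prpf38a were the other 3 below, and Lsm14b and Lsm5 (3.28) the 2 above. Prpf38a was well above background on 4 of 8 arrays and on neither WT primary one, and Lsm14b on neither KO primary one, so no size is given for them.

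The value of a member depended on which of its probes was read, and pairs of probes that differed widely are shown here by the first 30 of their 60 bases, 5′ to 3′, with positions in mm8 as the files give them. Each pair targets 1 gene, and the probe of higher mean level comes first.
Srsf1, chr11:87867243-87867302, plus strand: ataggatagggaggatgaattaccaggatt
Srsf1, chr11:87865340-87865399, plus strand: agtttgtacggaaagaagatatgacgtatg
Hnrnpr, chr4:135612251-135612310, plus strand: actcaaggcttcttatttttcttcttttct
Hnrnpr, chr4:135614740-135614799, plus strand: agttgatgagactttatttatgagcctgtc
Srsf6, chr2:162628195-162628254, plus strand: gcagaagtgactgacttaaagtgttttagt
Srsf6, chr2:162626280-162626339, plus strand: gcctaatctttaagaggatttcctgaaaag
Hnrnpa2b1, chr6:51392376-51392436, minus strand: gacataacgtttttccttcccaattttaag
Hnrnpa2b1, chr6:51390921-51390980, minus strand: gtcaaccacagagtcttcaagaaataagaa
Sfswap, chr5:129885944-129886003, plus strand: gtcagtcagtggcttttgtaaatttttggt
Sfswap, chr5:129865538-129869152, plus strand: aaatcctcttccagaagcagaagttggaaa
The second Sfswap probe spans more than its own length on the genome. An annotation of mm8 was not used here, so exon or UTR is not given for these sites.

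Srsf1 is an SR protein with many targets. Its brighter probe stood at 4.32 and 4.40 in KO and 4.70 and 4.93 in WT cells of secondary recipients, against 2.9962 and 1.27 in KO and 2.49 and 10.13 in WT cells of primary recipients. The other probe, in the same transcript record, stood at 2.25 and 3.23 in KO and 1.53 and 3.55 in WT cells of secondary recipients, against -6.90 and -3.21 in KO and -7.19 and -4.19 in WT cells of primary recipients. Secondary against primary, the brighter probe gave 0.89 and overlapped between the kinds of recipient. The other did not overlap, but it was not well above background on any primary array, so that it was at least 65.6-fold higher in cells of secondary recipients. With every probe tested on its own, that second probe passed (limma adjusted p = 0.0464), as did 103 of 32776 probes in all (0.314%). Among them was a probe of Sfswap, well above background on 2 of the 4 primary arrays, at 6.48 (SE 0.91, limma adjusted p = 0.0482), which stood at 1.76 and 0.52 in KO and 3.01 and 3.02 in WT cells of secondary recipients, against -3.11 and -2.94 in KO and -5.03 and -4.44 in WT cells of primary recipients. The brightest Sfswap probe gave 0.44 in the same comparison, and that probe gave the reversal described above. On the passing Sfswap probe KO likewise lay below WT in secondary and above WT in primary recipients, at -2.27 and 1.38. The difference was -3.77 (SE 1.44). That probe was not well above background on either dim array, so its order in primary recipients rests in part on levels without a measured size. The remaining Sfswap probes were well above background on no primary array.

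**Figure D5:**
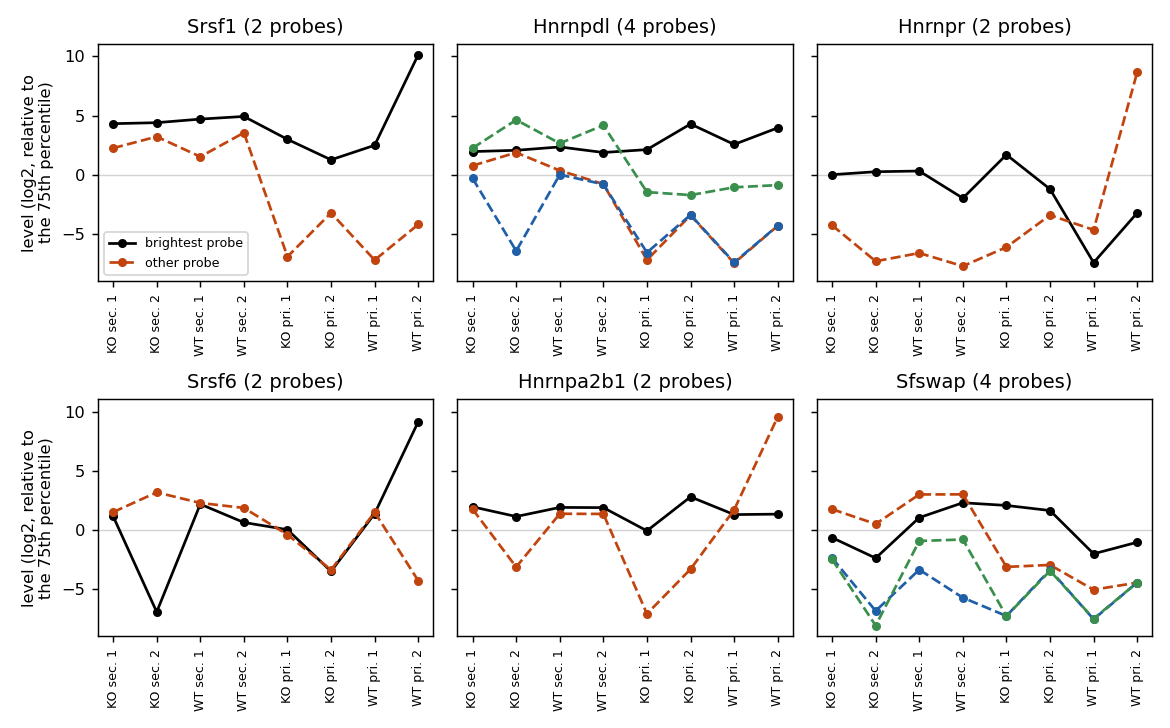
Levels of every probe of 6 genes on the 8 arrays (y axis, log2 signal minus the array's 75th percentile; x axis, arrays by genotype, kind of recipient and replicate), with the brightest probe of each gene as a solid black line and the others dashed. The dashed probe of Srsf1 and 2 of the 3 dashed probes of Hnrnpdl lie lower on all primary arrays than on all secondary ones, and the solid probes of both genes overlap between the kinds of recipient.

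Hnrnpdl, an AU-rich RNA-binding hnRNP, has 4 probes. Its brightest gave a secondary against primary change of -0.65, while another, above background on 7 of 8 arrays, gave 5.23. The remaining pair were well above background on no primary array. The brighter of them was at least 15.5-fold higher in cells of secondary recipients. The dimmer was well above background on only 3 secondary arrays, so no size is given for it. The probes of Hnrnpr gave 2.71 and -4.57 in that comparison, with 3 of 8 arrays below background on the brighter and 5 on the other, and those of Srsf6 -1.97 and 4.36, with 2 on each. For Hnrnpa2b1, KO against WT was -0.46 on the brighter probe and -6.73 on the other, which stood at 9.55 on WT primary replicate 2.

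Over all members, 52 genes had several probes, which made 125 pairs. The 2 probes of a pair correlated over the 8 arrays with a median r of 0.27. Among the 19 pairs (11 genes) above background on all arrays the median was 0.37, from 0.061 to 0.96, and 5 exceeded 0.8. Pairs under 200 bases apart on the genome were few but closer (5 pairs, median 0.82), against 0.26 for 50 pairs at 200 to 2000 bases and 0.24 for 70 pairs farther apart. These pairs share arrays and genes, and the values are a description. Of 111 pairs tested, 36 differed in sign for secondary against primary recipients and 49 for KO against WT, with median absolute differences of 1.81 and 1.55.

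Outside the name rule, 7 lists of splicing genes held 135 tested genes that are not members, and no one of them passed. For secondary against primary recipients over both genotypes 100 stood above the median gene and 35 below (median 1.30), and at an unadjusted p under 0.05 23 were higher (17.0%) and 7 lower (5.19%), against 5.52% and 13.6% of all genes. For KO against WT over both kinds of recipient 41 stood above and 94 below (median -0.50), with 0 higher and 4 lower (2.96%), against 3.52% and 1.17% of all genes. Other hnRNP-type and tissue-specific regulators had the highest median between recipients, 1.92 (24 of 28 above), followed by U snRNP proteins outside the families (1.38, 14 of 18), Prp19 complex and catalytic factors (1.33, 18 of 24), SR-related regulators and SR kinases (1.21, 12 of 14), exon junction and export factors (1.03, 14 of 20), factors of the 3′ splice site (0.68, 10 of 17) and snRNP assembly factors (0.16, 8 of 14).

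Slu7, which acts in the second catalytic step, had the lowest p among them. It stood at 0.05 and 1.81 in KO and 2.29 and 0.66 in WT cells of secondary recipients, against -4.08 and -3.31 in KO and -3.61 and -4.33 in WT cells of primary recipients. All secondary arrays lay above all primary arrays, with a change of 5.77 (SE 0.75, limma adjusted p = 0.0638). On the dim arrays Slu7 lay below the faintest signal that counted as well above background. Its change thus rests in part on levels without a measured size. Snw1, a partner of Prpf19 in the active spliceosome, stood at 3.89 and 2.66 in KO and 3.39 and 3.84 in WT cells of secondary recipients, against 0.25 and 0.46 in KO and 0.02 and 0.08 in WT cells of primary recipients. It was the steadier of the pair, at 3.97 (SE 0.64). Rnps1, an exon junction protein, stood at 6.20 (SE 0.99) and Nono, a paraspeckle protein, at 6.11 (SE 1.22). Of the 4 lower in KO, Sfpq, a partner of Nono, stood at -6.14 (SE 2.01), Pnn, an SR-related nuclear speckle protein, at -4.95 (SE 1.64), Sf1, which binds the branch point first, at -3.55 (SE 1.40) and Ddx23, a helicase of the tri-snRNP, at -2.06 (SE 0.75). Sfpq and Pnn had their highest level on WT primary replicate 2, at 8.21 and 10.42.

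E47 binds E-box sequences, so the promoters of the members were searched for 2 of them, from 250 bases before to 50 after the start of the gene (RefSeq, GRCm38.p6). Promoters were matched by symbol for 72 of the 84 members, the first one listed per gene. CAGCTG, which reads the same on both strands, was present in 9 of 72 (12.5%), against 16.1% of 27025 promoters. CACCTG or its reverse complement CAGGTG was present in 12 of 72 (16.7%), against 20.0%. The median KO against WT change over both kinds of recipient was -1.02 for members with CAGCTG and -0.95 for those without, and -1.74 for members with CACCTG and -0.95 for those without. A match of these letters is a description and does not make a binding site.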

How the data were processed

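The authors deposited 1 scanner file per array. Its processed signal is an intensity, per the file headers written by Agilent Feature Extraction 10.5.1.1. The values of the authors' series matrix are a ratio, signal over array median: scanner signals divided by matrix value times median gave 0.999948 to 1.00005 on all arrays, and column medians were 1.0. Amplification by global PCR comes first, per the labels' protocols, and can widen differences between arrays of little RNA.

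Here log2 signal minus the array's 75th percentile was taken over 41048 probes with a value on all 8 arrays. The probe of highest mean level stood for a gene. Genes entered the test only where some group had any probe for the gene, not necessarily the brightest, well above background on each of its 2 arrays. limma 3.58.1 (R 4.3.3) was fitted to all 8 arrays, with a mean per group or, over both genotypes or recipients, an additive model, and Benjamini-Hochberg adjustment over 22990 genes. The number of arrays limits the precision. The scripts were tested on simulated data.

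Alternatives were normexp background correction, quantile normalization, other scaling probes, other filters, every probe alone, the matrix values, slide or replicate number as a block, and leaving out arrays. Named members are a panel of core factors, those of lowest p (10 per direction over all arrays, 5 otherwise), the family extremes of level and range, and the 5 genes whose probes differed most. Sfswap's second probe was named because it passed the test. The 7 other splicing lists were U snRNP proteins, 3′ splice site factors, Prp19 complex and catalytic factors, exon junction and export factors, SR-related regulators and kinases, hnRNP-type regulators and snRNP assembly. One member that the rule for named genes takes is not reported here. The members and lists were chosen with earlier results of these data known.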

Additional observations from a re-analysis of the deposited data

How the results depend on the processing

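Of 252 counts and medians over the members recomputed under the alternatives, 240 kept their side of the threshold or moved by less than the spread between replicates. Part of these could not move, so the count is no measure of stability. Changes are centred on the median gene, so a median stays the same with another scaling of whole arrays. Leaving out an array outside the comparison also keeps it, as at -0.60 for KO against WT in primary recipients without a secondary array. For KO against WT in primary recipients, leaving out 1 array gave 0 to 8 members called and medians from -1.10 to 0.11. For secondary against primary recipients in WT the median was 1.75 with quantile normalization, 1.32 with every probe on its own and 2.13 without both dim arrays, and it ran from 0.48 to 2.13 leaving out 1 array. Over both genotypes, 1 member was called with quantile normalization, 1 with the 75th percentile over probes well above background on all arrays and 1 without both dim arrays, each time Lsm8, against 204, 369 and 77 of 22990 genes, and 2 with every probe on its own, against 103 of 32776 probes. Without both dim arrays the median there was 1.66. The median of the interaction ran from -1.15 to 0.29 leaving out 1 array. The causes were not tested.

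Of 1577 values for the named members, 1538 kept their direction and side of the threshold and 36, in 20 results, reversed. Here too part of the values could not move, and with every probe on its own the same probe of a gene was read. The count is thus no measure of stability between probes. Of 111 pairs of probes, 36 differed in sign for secondary against primary recipients and 49 for KO against WT. Without both dim arrays, Lsm1 stood at -0.71 (KO against WT over both kinds of recipient), Snrpa at 0.33, Prpf31 at 0.56 and Snrpc at 1.57 (secondary against primary, WT), Srsf3 at 0.039 (KO) and Snrpd1 at -0.49 (interaction). Over both genotypes, Hnrnpk then stood at 0.24, Hnrnpa0 at 0.12, Hnrnpdl at 0.22, Sugp2 at 0.090, Srsf11 at 0.90, Srsf2 at 1.54 and Prpf8 at 0.37. With probes well above background on all arrays, Snrpb2 stood at 1.96 (KO against WT, primary) and 1.07 (both), and between recipients Hnrnpdl at 0.14, Sugp2 at 0.049 and Prpf8 at 0.29. With normexp, Sf3a2 stood at 0.21, Hnrnpdl at 0.57, Sugp2 at 0.25 and Prpf8 at 0.70, and with quantile normalization Hnrnpdl at 0.18, Srsf2 at 0.64 and Prpf8 at 0.37, all between recipients. Leaving out 1 array, KO against WT ran from -0.23 to 1.90 for Prpf6 and -0.16 to 1.64 for Prpf4b (secondary), and from -0.038 to 2.74 for Srsf11, -0.36 to 4.93 for Lsm1 and -0.39 to 2.18 for Snrpe (both). Secondary against primary ran from -6.21 to 0.33 for Snrpa, -7.44 to 0.56 for Prpf31 and -7.44 to 1.57 for Snrpc (WT), from -3.43 to 0.039 for Srsf3 (KO), and from -1.10 to 0.077 for Sf3a2 and -0.63 to 0.20 for Prpf8 (both).

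The replicates of different groups share only a number: deviations of same-numbered arrays correlated between -0.026 and 0.15. With the replicate number as a block, 104 of 104 results kept their call. Each group holds both numbers, so this block cannot move a change but only its p. The medians of the members were thus those given, -0.95 for KO against WT and 0.96 for secondary against primary recipients. With the slide as a random block 0 members were called. In that setting 44 of 22990 genes passed for secondary against primary recipients over both genotypes, against 0 in the main fit.

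Groups of 2 arrays, 2 dim arrays and the placing of each genotype on its own slides limit these data, and a p that missed the threshold does not show that levels were alike.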
